A study of Rattus norvegicus with 12 samples.

Results

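The 9 genes described here encode 3 TGF-beta receptors (Tgfbr1, Tgfbr2, Tgfbr3), 5 SMAD proteins (Smad2, Smad3, Smad4, Smad6, Smad7) and the latent TGF-beta binding protein Ltbp1. They were chosen as a list of TGF-beta pathway genes without the ligands, and all 9 were among the 13151 genes of the deposited table. All 9 also passed the filter on low values and belonged to the 11633 genes tested. RNA of the renal cortex was sequenced from 12 male rats killed at 32 weeks of age. The 4 ZL rats were Zucker Lean controls. The 4 ZF rats were obese Zucker Fatty controls that carried a leptin receptor deficiency by the study's methods, whereas the sequencing record calls them leptin-deficient. The 4 ZF-SGLT2i animals were also Zucker Fatty and received canagliflozin, an inhibitor of the sodium–glucose cotransporter SGLT2 of the proximal tubule, at 10 mg/kg/day. Their treatment started at the age of 24 weeks and lasted 8 weeks. The study's methods describe lean rats only in an experiment with repeated kidney wedge biopsies. The treated rats came from a separate set of Zucker Fatty rats, for which no biopsy is described. By these methods ZF-SGLT2i and ZL rats also differed in experiment, and the effect of this was not tested. The methods do not state which experiment the sequenced ZF rats came from. A figure legend of the study calls them nontreated (ZF-NT), its label for untreated rats of the treatment experiment. ZF rats therefore also differed in experiment from ZL rats, from ZF-SGLT2i rats or, if mixed, from some of each. The effect of this on either comparison was not tested. Each rat gave 1 library, with reads on genes numbering 8886901 to 12210257 for ZL, 8824980 to 11191377 for ZF and 8914666 to 10293049 for ZF-SGLT2i animals. Values are read counts scaled to library size, with a further correction between libraries by the TMM method (TMM-scaled CPM), and are given as mean ± SD over 4 rats.

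TGF-beta is secreted in a latent complex, held in the matrix by latent TGF-beta binding proteins such as Ltbp1. Once released, the ligand binds the type II receptor (Tgfbr2), which phosphorylates the type I receptor (Tgfbr1), and the coreceptor betaglycan (Tgfbr3) presents the ligand to them. The type I receptor phosphorylates Smad2 and Smad3, which enter the nucleus with Smad4 and regulate genes of the matrix and of cell growth, while Smad6 and Smad7 inhibit the pathway. In the kidney the pathway is known for its part in glomerulosclerosis and interstitial fibrosis. Phosphorylation and ligand release are not seen in RNA, so the values below concern transcript levels alone.

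One library stood apart for these genes. ZL rat 3 had the lowest value of all 12 rats for 5 of the 9 genes (Tgfbr2, Tgfbr3, Smad2, Smad6 and Ltbp1), and no other rat was lowest for more than 1. It also had the fewest reads on genes of the ZL rats (8886901) and the smallest share of reads on the ribosomal genes Rn28s and Rn45s of the 12 rats (7.25%, against 8.82% to 15.2% in the others). Its summed endothelial, mesangial, podocyte, macrophage and injured tubule marker genes were the lowest of the 12 rats as well (660, 301, 1660, 86.0 and 559 CPM). Its proximal tubule marker sum was the highest (25380 CPM), and the markers are described below. The members' differences and correlations that rest on this rat are therefore also given without it, apart from the summary over all pairs of members.

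The first comparison, ZF against ZL rats, asked what differed in the cortex of the obese animals. All 9 genes had a positive log2 fold change, with a median of 0.15, against a median of −0.0077 over all genes tested. Without ZL rat 3, Ltbp1 was negative (−0.08) and the other 8 stayed positive, and the sign turned for Smad3 without ZF rat 2 (−0.0076) and for Smad4 without ZL rat 1 or ZF rat 5 (−0.0035 and −0.03). Moreover, only Tgfbr2 rose with an adjusted p-value under 0.05 (limma, Benjamini-Hochberg over all genes tested). That is 1 of 9 genes (11.1%). Of all genes tested, 18.8% were called in this comparison, 8.19% as higher and 10.6% as lower in ZF. Smad2 was the only member whose ZF and ZL values did not overlap, and 19.0% of all genes had no overlap between these groups (8.67% with all ZF values higher). In a bulk tissue, fewer cells of a type and less RNA per cell cannot be told apart, and this holds for every difference given here.

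**Figure D1:**
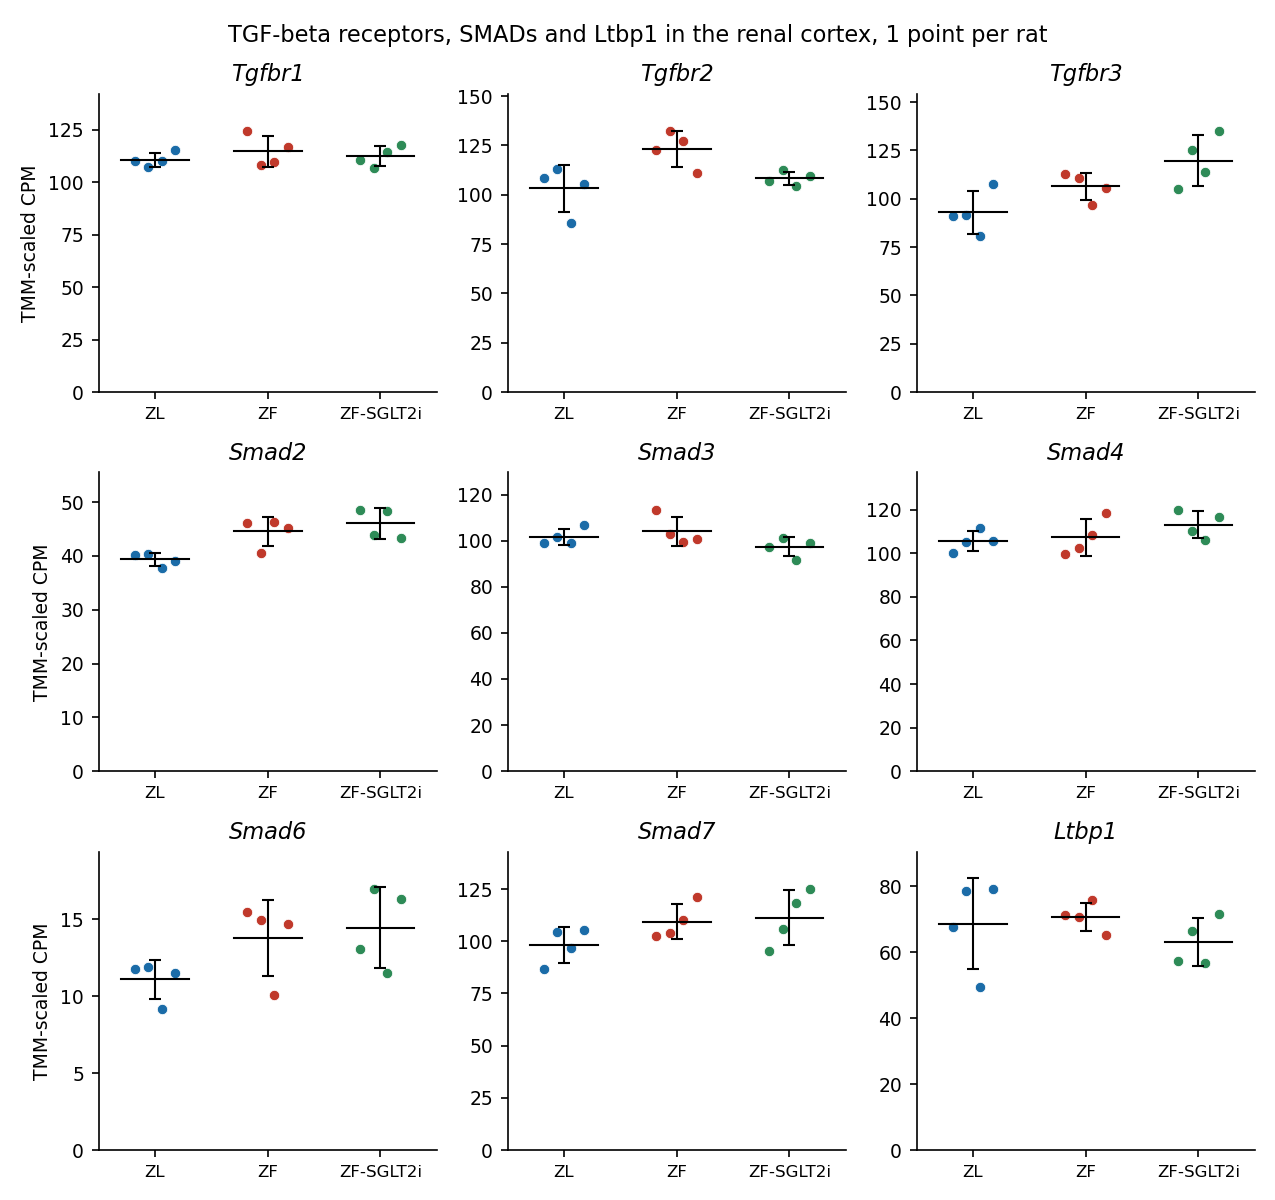
Normalised read counts (TMM-scaled CPM, linear axes from 0) of the 9 genes, with 1 point per rat, the group mean as a horizontal line and the SD over 4 rats as error bars. Every ZL rat lies below all other rats for Smad2, and for the other 8 genes the values of the 3 groups overlap, Tgfbr2 with its highest mean in ZF and Tgfbr3 with its lowest mean in ZL rats.

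Among the receptors, Tgfbr2 measured 108, 113, 86.0 and 106 CPM in ZL rats 1 to 4. In ZF rats 2 to 5 it measured 123, 132, 127 and 111 CPM, and in ZF-SGLT2i rats 2, 3, 4 and 6 it measured 107, 112, 105 and 109 CPM. ZF rats 2, 3 and 4 lay above every ZL and ZF-SGLT2i rat, whereas ZF rat 5 lay among them. The group means were 103 ± 12.0 (ZL), 123 ± 9.12 (ZF) and 108 ± 3.32 CPM (ZF-SGLT2i, n = 4 each), from 758 to 1487 reads per rat. The rise in ZF was 1.20-fold (log2 fold change 0.26, SE 0.08, 95% interval 0.09 to 0.43, adjusted p = 0.0389 by limma). The exact permutation test of 4 rats against 4 gave p = 0.0571 (two-sided, smallest possible 0.0286).

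The call on Tgfbr2 was lost in 10 of 22 alternative analyses. When ZL rat 3 was left out, the difference was 0.17 (adjusted p = 0.0845). The call was also lost without ZL rat 1 (0.28, adjusted p = 0.0558), ZL rat 4 (0.27, 0.0536), ZF rat 2 (0.26, 0.0789), ZF rat 3 (0.22, 0.111) or ZF rat 4 (0.24, 0.0684). Leaving out ZF-SGLT2i rat 2 or 3, which enter only through the shared spread, gave adjusted p-values of 0.0516 and 0.0518, and a fit of the ZF and ZL rats alone gave 0.0864. Between ZF-SGLT2i and ZF rats the log2 fold change of Tgfbr2 was −0.18 (SE 0.08, 95% interval −0.36 to −0.01), with an unadjusted p of 0.0391 and an adjusted p of 0.257. ZF-SGLT2i and ZL rats differed by 0.08 (95% interval −0.10 to 0.25), and by −0.0097 without ZL rat 3.

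Tgfbr3, the coreceptor, measured 91.2, 91.6, 81.0 and 108 CPM in ZL rats. It measured 113, 110.5, 96.6 and 106 CPM in ZF rats and 105, 125, 114 and 135 CPM in ZF-SGLT2i rats. The ZF-SGLT2i rats held the 3 highest values of the 12, and ZL rat 4 lay above ZF-SGLT2i rat 2. Group means were 92.9 ± 11.1, 106 ± 7.16 and 120 ± 13.1 CPM. Tgfbr3 was 1.29-fold higher in ZF-SGLT2i than in ZL rats (log2 fold change 0.36, SE 0.09, adjusted p = 0.0106 by limma; exact permutation p = 0.0571). Without ZL rat 3 this difference was 0.30 (adjusted p = 0.0305). The steps from ZL to ZF (0.20, SE 0.09, adjusted p = 0.151, and 0.14 without ZL rat 3) and from ZF to ZF-SGLT2i (0.16, SE 0.09, adjusted p = 0.389) did not pass.

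Tgfbr1, the type I receptor, ranged from 107 to 115 CPM among ZL, from 108 to 124 among ZF and from 107 to 118 among ZF-SGLT2i rats. The 3 groups overlapped throughout. Its log2 fold change was 0.05 in ZF against ZL (95% interval −0.07 to 0.17) and −0.03 in ZF-SGLT2i against ZF (−0.15 to 0.09), and the first interval ended at a 1.13-fold rise.

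Of the receptor-regulated SMADs, Smad2 measured 40.2, 40.4, 37.8 and 39.0 CPM in ZL rats. It measured 46.1, 40.6, 46.3 and 45.2 CPM in ZF rats and 48.6, 43.9, 48.4 and 43.2 CPM in ZF-SGLT2i rats. Every ZL value lay below all 8 others, although ZF rat 3, at 40.6 CPM, exceeded the highest ZL rat only slightly. Smad2 was 1.16-fold higher in ZF-SGLT2i than in ZL rats (log2 fold change 0.22, SE 0.06, adjusted p = 0.0202 by limma). Its exact permutation p was 0.0286, the smallest that 4 rats against 4 allow. This call was lost without ZF-SGLT2i rat 2 (0.19, adjusted p = 0.0595) or ZF-SGLT2i rat 4 (0.20, 0.0527), and held without ZL rat 3 (0.20, 0.0477). In ZF against ZL rats the difference was 0.17 (SE 0.06, adjusted p = 0.0721), and 0.15 without ZL rat 3. There it passed without ZF rat 3 (0.22, adjusted p = 0.0442) and after quantile normalization (0.20, 0.0407). ZF-SGLT2i and ZF rats differed by 0.05 (95% interval −0.09 to 0.18).

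Smad3 averaged 102 ± 3.57 CPM for ZL, 104 ± 6.34 for ZF and 97.3 ± 4.17 for ZF-SGLT2i rats. Its largest difference, between ZF-SGLT2i and ZF rats, was −0.10 (95% interval −0.22 to 0.02, adjusted p = 0.412). Smad4, the shared partner of the other SMADs, had means of 106 ± 4.60, 107 ± 8.42 and 113 ± 6.23 CPM, and its largest difference was 0.10 between ZF-SGLT2i and ZL rats (95% interval −0.04 to 0.24, adjusted p = 0.274). For both genes the groups overlapped in every comparison.

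Of the inhibitory SMADs, Smad6 had the widest range of the 9 genes over the 12 rats. It measured 11.8, 11.9, 9.19 and 11.5 CPM in ZL rats, 15.4, 14.9, 10.1 and 14.6 CPM in ZF rats, and 13.0, 17.0, 11.5 and 16.3 CPM in ZF-SGLT2i rats. ZL rat 3, ZF rat 4 and ZF-SGLT2i rat 4 were the lowest of their groups, and the ZL values overlapped the others only through the last 2 of these. Smad6 had the fewest reads of the 9 genes (81 to 168 per rat), so counting alone gave a coefficient of variation of up to 11.1%, against 11.5% to 18.1% measured within groups. The log2 fold change was 0.28 in ZF against ZL (95% interval −0.04 to 0.60, adjusted p = 0.204) and 0.34 in ZF-SGLT2i against ZL rats (0.03 to 0.66, adjusted p = 0.0989). Without ZF rat 4 the first was 0.41 and passed (adjusted p = 0.0425), and without ZF-SGLT2i rat 4 the second was 0.44 and passed (adjusted p = 0.0457). Without ZL rat 3 they were 0.20 and 0.26 (adjusted p = 0.406 and 0.223).

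Smad7, which blocks the type I receptor and is itself induced by TGF-beta, averaged 98.3 ± 8.71 CPM for ZL, 109 ± 8.43 for ZF and 111 ± 13.1 for ZF-SGLT2i rats. The spread in ZF-SGLT2i rats was wide, from 95.5 CPM in rat 2 to 125 CPM in rat 6. ZF and ZL rats differed by 0.15 (95% interval −0.04 to 0.35, adjusted p = 0.25), and ZF-SGLT2i and ZF rats by 0.02 (−0.17 to 0.21).

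In ZF-SGLT2i against ZF rats, the comparison that asked what the treatment altered, none of the 9 genes was called by limma, edgeR or DESeq2. Limma called 3.15% of all genes tested, 1.39% as higher and 1.75% as lower. These were 366 genes, and 176 to 570 when 1 rat was left out. Array quality weights and DESeq2 called 689 and 641. Of the 9 log2 fold changes, 5 were positive and 4 negative, with a median of 0.02. Only Tgfbr2 had an unadjusted p under 0.05, which 17.2% of all genes had. No member had groups without overlap, against 11.2% of all genes. The widest intervals were those of Smad6 (−0.25 to 0.38) and Ltbp1 (−0.44 to 0.11), so that changes of this size could not be told from none. In ZF-SGLT2i against ZL rats, 7 genes had a positive and 2 a negative log2 fold change. The sign turned for Tgfbr2 without ZL rat 3 (−0.0097) and for Tgfbr1 without ZF-SGLT2i rat 6 (−0.0027). Tgfbr3 and Smad2 were the 2 genes called there (22.2%, against 27.4% of all genes tested, 12.4% as higher), and Smad2 alone had groups without overlap (28.0% of all genes, 12.9% with all ZF-SGLT2i values higher).

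**Figure D2:**
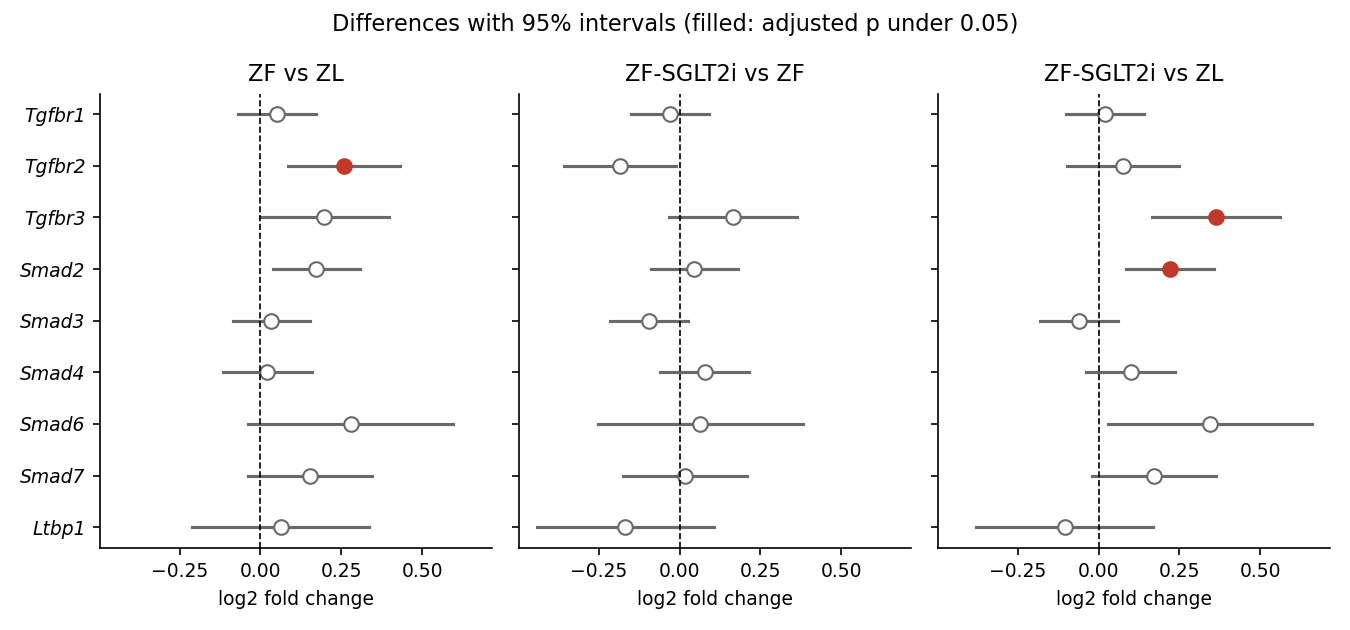
Log2 fold changes of the 9 genes (points) with 95% intervals (lines) in the 3 comparisons, on log2(CPM + 1), filled red where the adjusted p-value was under 0.05. Tgfbr2 is filled in ZF against ZL (0.26), no gene is filled in ZF-SGLT2i against ZF, and Tgfbr3 (0.36) and Smad2 (0.22) are filled in ZF-SGLT2i against ZL.

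Ltbp1 measured 67.5, 78.5, 49.4 and 79.2 CPM in ZL rats. In ZF rats it measured 71.3, 70.6, 75.6 and 65.0 CPM, and in ZF-SGLT2i rats 57.3, 66.4, 56.6 and 71.7 CPM. ZL rats held both the lowest and the highest value of the 12, and all groups overlapped. ZF and ZL rats differed by 0.06 (95% interval −0.21 to 0.34, adjusted p = 0.773), and the sign turned without ZL rat 3 (−0.08). ZF-SGLT2i rats differed by −0.17 from ZF (−0.44 to 0.11, adjusted p = 0.546) and by −0.10 from ZL rats (−0.38 to 0.17, adjusted p = 0.581). Without ZL rat 3 the last difference was −0.25 (adjusted p = 0.0606). Of the other latent TGF-beta binding protein genes, Ltbp2 rose from 9.39 ± 1.65 CPM in ZL to 35.3 ± 14.0 in ZF rats (log2 fold change 1.75, SE 0.24, adjusted p = 0.000488 by limma, and 1.62 without ZL rat 3, adjusted p = 0.00209), and all ZF values (24.2 to 54.9) lay above all ZL values (6.92 to 10.4). Ltbp3 and Ltbp4 rose by 0.31 (SE 0.08, adjusted p = 0.019) and 0.46 (SE 0.09, adjusted p = 0.00522). After treatment, the log2 fold changes of Ltbp2, Ltbp3 and Ltbp4 against ZF rats were −0.65 (adjusted p = 0.17), 0.02 (0.94) and −0.18 (0.35). Whether Ltbp1 differed from Ltbp2 in its response was not tested.

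**Figure D3:**
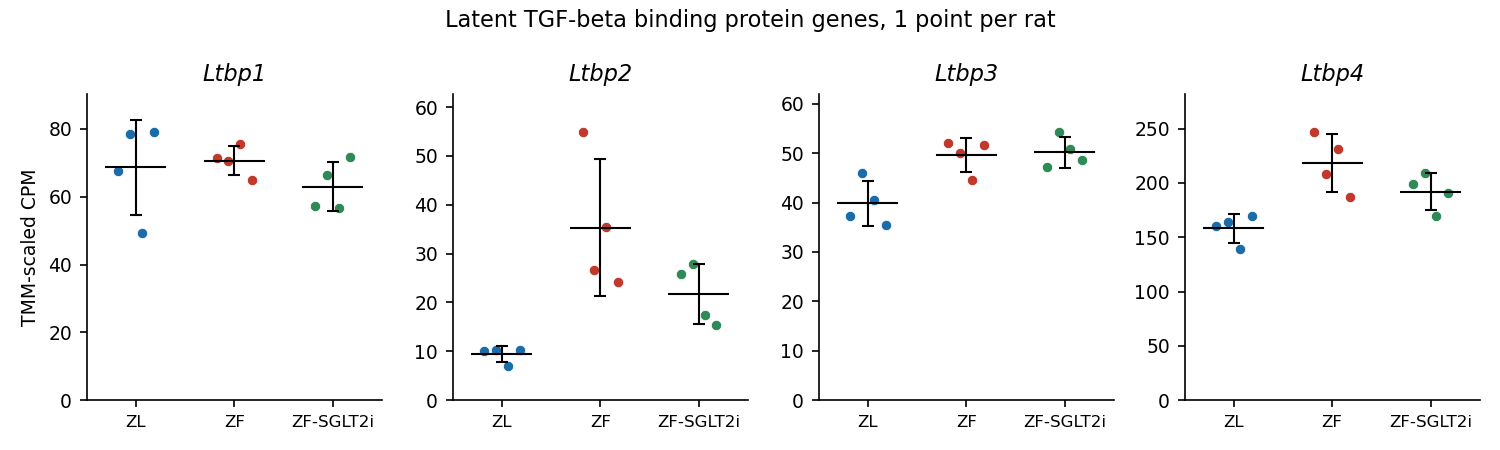
Normalised read counts (TMM-scaled CPM, linear axes from 0) of the 4 latent TGF-beta binding protein genes, with 1 point per rat, the group mean as a line and the SD over 4 rats as error bars. Ltbp1 overlaps in all groups, whereas every ZF rat lies above every ZL rat for Ltbp2 and Ltbp4.

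To see whether letters of a SMAD binding site lie near the start of these genes, promoter windows of 250 bases before to 50 after the start were read from the RefSeq table of assembly GRCr8, which held a window for 8 of the 9 genes. The SMAD binding core CAGAC, searched on both strands, was found in 50.1% of all 33469 rat windows and in 1 of the 8 genes, Ltbp1. Its palindrome of 8 bases, GTCTAGAC, which does not contain CAGAC, was found in 0.197% of windows and in none of the 8. The windows of Ltbp1, the gene with the match, and of Tgfbr2, the gene called in ZF rats, are shown 5′ to 3′ on the minus strand (chr6:26177252-26177551 and chr8:124761420-124761719), with the match to CAGAC, read on the other strand, in capitals.
Ltbp1: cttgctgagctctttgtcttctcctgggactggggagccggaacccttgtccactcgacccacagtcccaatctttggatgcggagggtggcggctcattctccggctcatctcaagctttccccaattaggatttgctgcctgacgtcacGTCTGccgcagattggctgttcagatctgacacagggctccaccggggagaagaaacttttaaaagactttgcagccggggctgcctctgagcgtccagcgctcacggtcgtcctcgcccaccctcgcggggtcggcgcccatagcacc
Tgfbr2: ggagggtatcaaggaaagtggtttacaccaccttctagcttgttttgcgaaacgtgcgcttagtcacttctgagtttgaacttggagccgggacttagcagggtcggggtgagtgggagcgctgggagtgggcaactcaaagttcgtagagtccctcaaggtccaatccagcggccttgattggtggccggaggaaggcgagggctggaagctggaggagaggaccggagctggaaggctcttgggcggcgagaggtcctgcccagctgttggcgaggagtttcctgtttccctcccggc
A match is a run of letters, not a measured binding site, and its absence in a window of 300 bases says nothing of sites elsewhere.

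The 9 genes were next set beside the rest of the pathway, in lists of 137 genes, 124 of them in the table and 111 tested. In ZF against ZL rats, 27 of the 111 rose and 6 fell (29.7% called, against 18.8% of all genes tested), with a median log2 fold change of 0.18. Between ZF-SGLT2i and ZF rats, 1 rose and 9 fell (9.01%, against 3.15%), with a median of −0.09. This count of 10 was 5 or 6 without ZF rat 4 or ZF-SGLT2i rat 3, 4 or 6, and 16 or 17 without ZL rat 3 or 4 or ZF rat 5. It was 16 in a fit of these 2 groups alone, 22 with array quality weights and 26 with DESeq2. The count of 33 in ZF against ZL rats was 21 without ZL rat 1 and 19 without ZF rat 2. The lists were chosen with earlier results of these data known, so a share above that of all genes is a description, not a test. Both comparisons use the same ZF rats, so opposite signs are partly given by the design, and the values below are set side by side only.

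**Figure D4:**
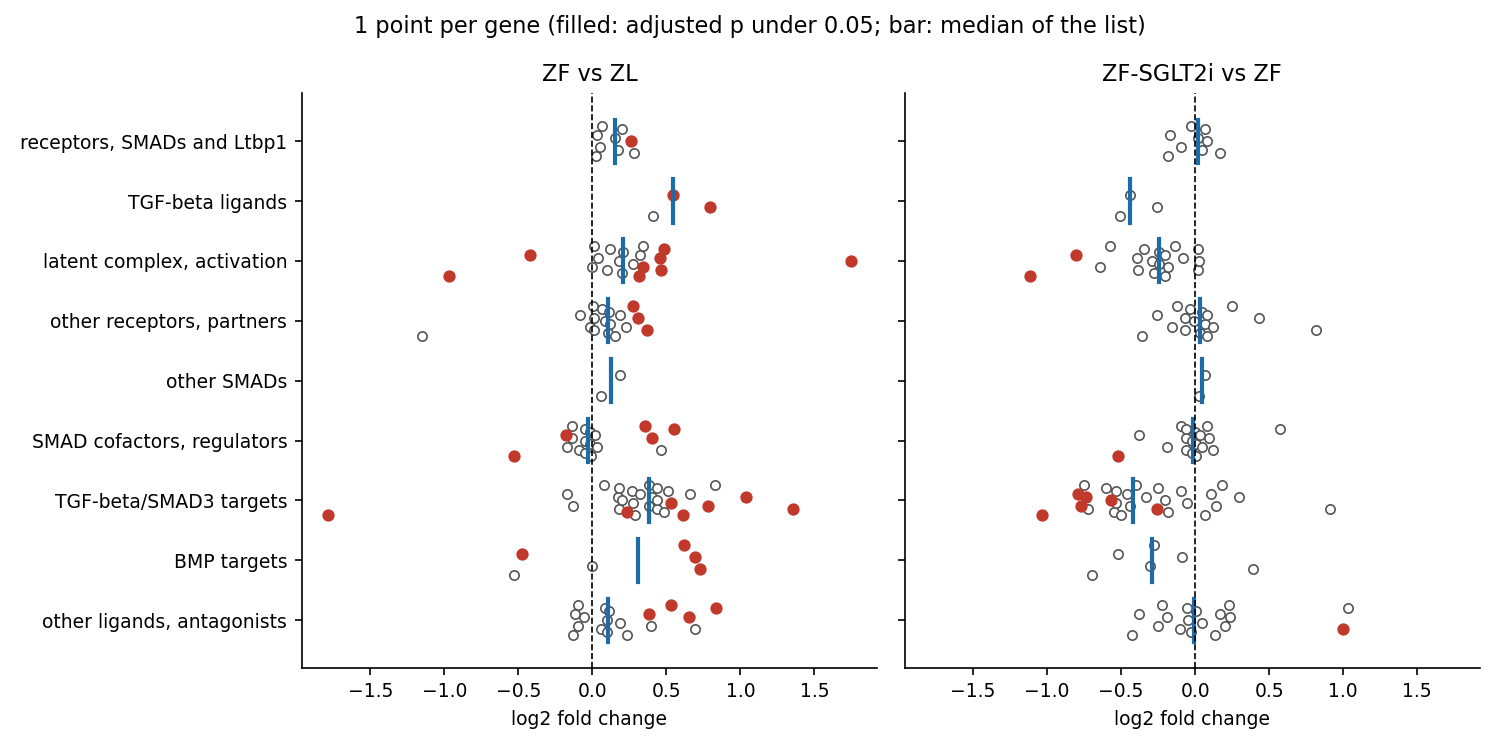
Log2 fold changes on log2(CPM + 1) of the 9 genes and of the other pathway lists, with 1 point per gene, filled red where the adjusted p-value was under 0.05, and a bar at the median of each list. In ZF against ZL (left) the 3 ligands and most target genes lie to the right of 0, and in ZF-SGLT2i against ZF (right) most target genes lie to the left, while the receptors, SMADs and Ltbp1 lie between −0.18 and 0.16.

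The ligand genes Tgfb1 and Tgfb2 rose in ZF rats. Tgfb1 averaged 16.2 ± 2.37 CPM for ZL, 24.1 ± 3.20 for ZF and 20.1 ± 2.89 for ZF-SGLT2i rats, and its rise was 0.54 (adjusted p = 0.0114), or 0.44 without ZL rat 3 (adjusted p = 0.0292). Tgfb2 rose from 5.16 ± 1.11 to 9.67 ± 1.71 CPM (0.80, adjusted p = 0.00286), and Tgfb3 differed by 0.41 (adjusted p = 0.0835), which passed without ZF rat 3 (0.51, adjusted p = 0.0497). The 3 log2 fold changes in ZF-SGLT2i against ZF rats were −0.25, −0.44 and −0.50, and none was called (against 3.15% of all genes tested).

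Of 19 tested genes of the latent complex and its activation, 6 rose and 2 fell in ZF rats (42.1%, against 18.8% of all genes tested, median 0.21). Besides Ltbp2 and Ltbp4, these included Emilin1, a matrix glycoprotein that restrains TGF-beta processing (65.6 ± 4.92 against 92.3 ± 7.52 CPM, log2 fold change 0.49, adjusted p = 0.00124). The integrin subunit gene Itgb5 rose from 225 ± 27.5 to 309 ± 15.03 CPM (0.46, adjusted p = 0.00164). With treatment none rose and 2 fell against ZF rats (10.5%, against 3.15% of all genes tested, median −0.24). Dcn, which encodes the TGF-beta binding proteoglycan decorin, fell from 91.7 ± 29.0 to 40.3 ± 4.17 CPM (−1.11, SE 0.20, adjusted p = 0.00827). Fbn1, the microfibril protein that anchors latent complexes, fell from 71.3 ± 23.0 to 38.9 ± 4.29 CPM (−0.80, adjusted p = 0.0354). The call on Fbn1 was lost without ZL rat 1, ZF rat 2, 3 or 4, or ZF-SGLT2i rat 3, 4 or 6 (adjusted p between 0.0527 and 0.108).

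Of 17 other receptors and receptor partners, 3 rose and none fell in ZF rats (17.6%, near the 18.8% of all genes tested, median 0.11). None was called in ZF-SGLT2i against ZF rats (against 3.15% of all genes tested, median 0.03). The adaptor Shc1 rose from 66.8 ± 3.53 to 81.1 ± 3.20 CPM (log2 fold change 0.28, adjusted p = 0.00411). The endothelial type I receptor Acvrl1 rose by 0.37 (adjusted p = 0.025) and the endothelial coreceptor endoglin, Eng, by 0.31 (adjusted p = 0.0362). Acvrl1 lost its call without ZL rat 1 or 3 or ZF rat 2, 3 or 5 (adjusted p 0.0513 to 0.0776), and Eng without ZL rat 1, 3 or 4 or ZF rat 2 or 3 (0.0578 to 0.106) and in a fit of the ZF and ZL rats alone (0.0678). Eng averaged 163 ± 21.0 CPM for ZL, 202 ± 18.8 for ZF and 157 ± 12.1 for ZF-SGLT2i rats. Its log2 fold change in ZF-SGLT2i against ZF rats, −0.36, missed the threshold (adjusted p = 0.057), and passed without ZL rat 2 or 3 or ZF rat 5 (0.041, 0.0246 and 0.0455), with array quality weights (0.0143), with DESeq2 (0.0119) and in a fit of these 2 groups alone (0.0253).

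Neither of the 2 other SMADs tested was called in ZF against ZL or ZF-SGLT2i against ZF rats (18.8% and 3.15% of all genes tested were). Smad1, which acts downstream of BMP receptors, measured 41.8 ± 1.54, 43.7 ± 1.42 and 45.7 ± 2.13 CPM in the ZL, ZF and ZF-SGLT2i groups. Of 18 SMAD cofactors and regulators, 3 rose and 2 fell in ZF rats (27.8%, against 18.8% of all genes tested, median −0.03), and 1 fell in ZF-SGLT2i against ZF rats (5.56%, against 3.15%, median −0.01). That gene was Ldlrad4, whose product lowers receptor signalling by keeping SMAD2 and SMAD3 from the receptor. Ldlrad4 measured 21.2, 18.1, 20.2 and 19.8 CPM in ZL rats, 25.5, 26.7, 27.1 and 23.4 CPM in ZF rats, and 16.6, 18.6, 17.2 and 17.8 CPM in ZF-SGLT2i rats. No ZF value overlapped either other group. It rose by 0.36 in ZF (SE 0.07, adjusted p = 0.00577) and fell by 0.52 in ZF-SGLT2i against ZF rats (SE 0.07, adjusted p = 0.00171), and both calls held in all 22 alternatives.

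Pmepa1, a TGF-beta induced relative of Ldlrad4 that also binds SMAD2 and SMAD3, rose in ZF rats from 18.4 ± 1.69 to 24.6 ± 1.58 CPM (0.40, adjusted p = 0.0207), and measured 18.8 ± 3.14 in ZF-SGLT2i rats (−0.38 against ZF, adjusted p = 0.078). The corepressor Tgif2 rose in ZF by 0.55 (adjusted p = 0.0211), and the ubiquitin ligase Wwp1 fell by 0.53 (adjusted p = 0.0226). Pmepa1 lost its call without ZL rat 1 or ZF rat 2 (adjusted p 0.066 and 0.0608), Tgif2 without ZL rat 1 or 4 or ZF rat 2 (0.0502 to 0.067), and Wwp1 without ZL rat 1 or ZF rat 3 or 5 (0.0553 to 0.059) or in a fit of the ZF and ZL rats alone (0.0597). Tgif2 averaged 5.43 ± 0.510 (ZL), 8.52 ± 1.57 (ZF) and 13.2 ± 2.87 CPM (ZF-SGLT2i), and the difference between the last 2 missed the threshold (0.58, adjusted p = 0.0542).

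Of 28 tested genes known as targets of TGF-beta and SMAD3, 25 had a positive log2 fold change in ZF against ZL rats. Among all genes tested, 48.4% were positive. Of the 28 target genes, 6 rose and 1 fell (25.0% called, against 18.8% of all genes tested, median 0.38). Vim, the intermediate filament gene of mesenchymal cells and podocytes, rose from 63.6 ± 8.80 to 134 ± 33.6 CPM (log2 fold change 1.04, SE 0.14, adjusted p = 0.000449). The metalloproteinase inhibitor Timp1 rose by 0.78 (adjusted p = 0.00634), on 18 to 71 reads per rat. Tgfbi, although named for its induction by TGF-beta, fell from 43.3 ± 33.4 to 10.4 ± 5.58 CPM (−1.79, SE 0.46, adjusted p = 0.0168), with ZL rats spread from 16.9 to 88.0 CPM, and its call was lost without ZL rat 1 (−1.62, adjusted p = 0.054).

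Of all genes tested, 51.7% had a positive log2 fold change in ZF-SGLT2i against ZF rats. There, 22 of the same 28 target genes had a negative one, 6 fell and none rose (21.4% called, against 3.15% of all genes, median −0.42). The target genes with the smallest adjusted p were collagens. Col4a1, of the basement membrane, averaged 573 ± 59.1 (ZL), 693 ± 97.0 (ZF) and 412 ± 21.5 CPM (ZF-SGLT2i), and fell by 0.74 (SE 0.10, adjusted p = 0.00113). All ZF-SGLT2i values (383 to 431) lay below all values of the other 8 rats (524 to 812). The fibrillar collagens Col3a1, Col1a2 and Col5a1 fell by 1.03, 0.79 and 0.57 (adjusted p = 0.00553, 0.0205 and 0.0313). Col1a2 lost its call without ZF rat 2, 3 or 4 or ZF-SGLT2i rat 3, 4 or 6 (adjusted p 0.051 to 0.065), and Col5a1 without ZF rat 2 or 4 or any 1 of the ZF-SGLT2i rats (0.0532 to 0.0946). Against ZL rats, Col4a1 and Col3a1 were also lower in ZF-SGLT2i rats (−0.47 and −0.52, adjusted p = 0.00339 and 0.0376), whereas Vim was higher (0.95, adjusted p = 0.000407).

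The BMP arm, which shares Smad4, Smad6 and Smad7 with TGF-beta signalling, was described by its targets and ligands. Of 6 tested BMP targets, 3 rose and 1 fell in ZF rats (66.7%, against 18.8% of all genes tested, median 0.31), and none was called in ZF-SGLT2i against ZF rats (against 3.15%, median −0.29). Id1, an inhibitor of bHLH transcription factors, rose from 14.2 ± 3.95 to 23.9 ± 3.84 CPM (0.72, adjusted p = 0.0203). Id3 and Atoh8 rose by 0.62 and 0.69 (adjusted p = 0.0315 and 0.0205), and Id2 fell by 0.48 (adjusted p = 0.0228). Id1 and Atoh8 lost their calls without ZL rat 1 or ZF rat 2 or 5 (adjusted p 0.0512 to 0.0612), Id2 without ZL rat 1 or 3 or ZF rat 2 or 3 (0.056 to 0.0736), and Id3 without ZL rat 1, 2 or 3 or ZF rat 2 or 5 (0.0642 to 0.0864).

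Of 18 other ligands and extracellular antagonists, 4 rose and none fell in ZF rats (22.2%, near the 18.8% of all genes tested, median 0.11). The BMP antagonist gremlin, Grem1, rose from 75.1 ± 11.6 to 134 ± 10.5 CPM (0.83, adjusted p = 0.00259) and the antagonist Sostdc1 from 169 ± 28.0 to 244 ± 25.3 CPM (0.53, adjusted p = 0.0145). The ligand Bmp6 rose by 0.66 (adjusted p = 0.00643) and Fstl1 by 0.38 (adjusted p = 0.033), the latter not without ZL rat 1 or ZF rat 2, 3 or 4 (0.0532 to 0.0929), nor in a fit of the ZF and ZL rats alone (0.0759). Between ZF-SGLT2i and ZF rats only Bmp3 was called (5.56% of the list, against 3.15% of all genes tested, median −0.01). Bmp3 measured 9.68, 11.4, 9.14 and 13.1 CPM in ZF rats and 19.2, 21.0, 25.7 and 24.6 CPM in ZF-SGLT2i rats (1.00, SE 0.15, adjusted p = 0.00314), with no overlap.

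Among themselves the 9 genes did not rise and fall as a block. Pearson's correlations of log2(CPM + 1) over the 12 rats, which share libraries and group differences and are given as a description, had a median of 0.30 over the 36 pairs and exceeded 0.5 in 4. The highest were 0.82 for Tgfbr3 with Smad6 and 0.69 for Tgfbr2 with Ltbp1, and the lowest was −0.40 for Smad3 with Smad4. With the group means removed the first 2 were 0.73 and 0.83, and without ZL rat 3 they were 0.73 and 0.39. Also above 0.5 were Tgfbr3 with Smad7 (0.60) and Smad3 with Ltbp1 (0.53), which were 0.57 and 0.62 without ZL rat 3. With the group means removed the lowest pair was Tgfbr2 with Smad4 (−0.55). Without ZL rat 3 it was Smad2 with Ltbp1 (−0.69, and −0.12 over the 12 rats). The median and the count of 4 were taken only with ZL rat 3 included. From the lowest to the highest rat the genes spanned from 1.16-fold (Tgfbr1) to 1.85-fold (Smad6).

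The genes with the most similar values over the 12 rats were then looked up for the 3 genes called in any comparison. For Tgfbr2 they were Clec14a (r = 0.94), Cyyr1 (0.92) and Ets1 (0.92). Ets1, an ETS family transcription factor, measured 97.5, 101, 74.7 and 94.2 CPM in ZL rats, 126, 115, 121 and 108 CPM in ZF rats and 95.5, 103, 90.8 and 109 CPM in ZF-SGLT2i rats, so that ZL rat 3 was again the lowest. Without it the 3 correlations with Tgfbr2 were 0.88, 0.86 and 0.84. For Tgfbr3 the nearest genes were Efna4 (0.95), Prdm11 (0.94) and Mturn (0.94), and for Smad2 they were Obfc1 (0.93), Sla (0.90) and Runx1 (0.90). Without ZL rat 3 the correlations were 0.94, 0.92 and 0.91 for Tgfbr3, and 0.93, 0.89 and 0.88 for Smad2. Runx1, a transcription factor with few reads here (26 to 80 per rat), rose in ZF rats by 0.86 (adjusted p = 0.000997).

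**Figure D5:**
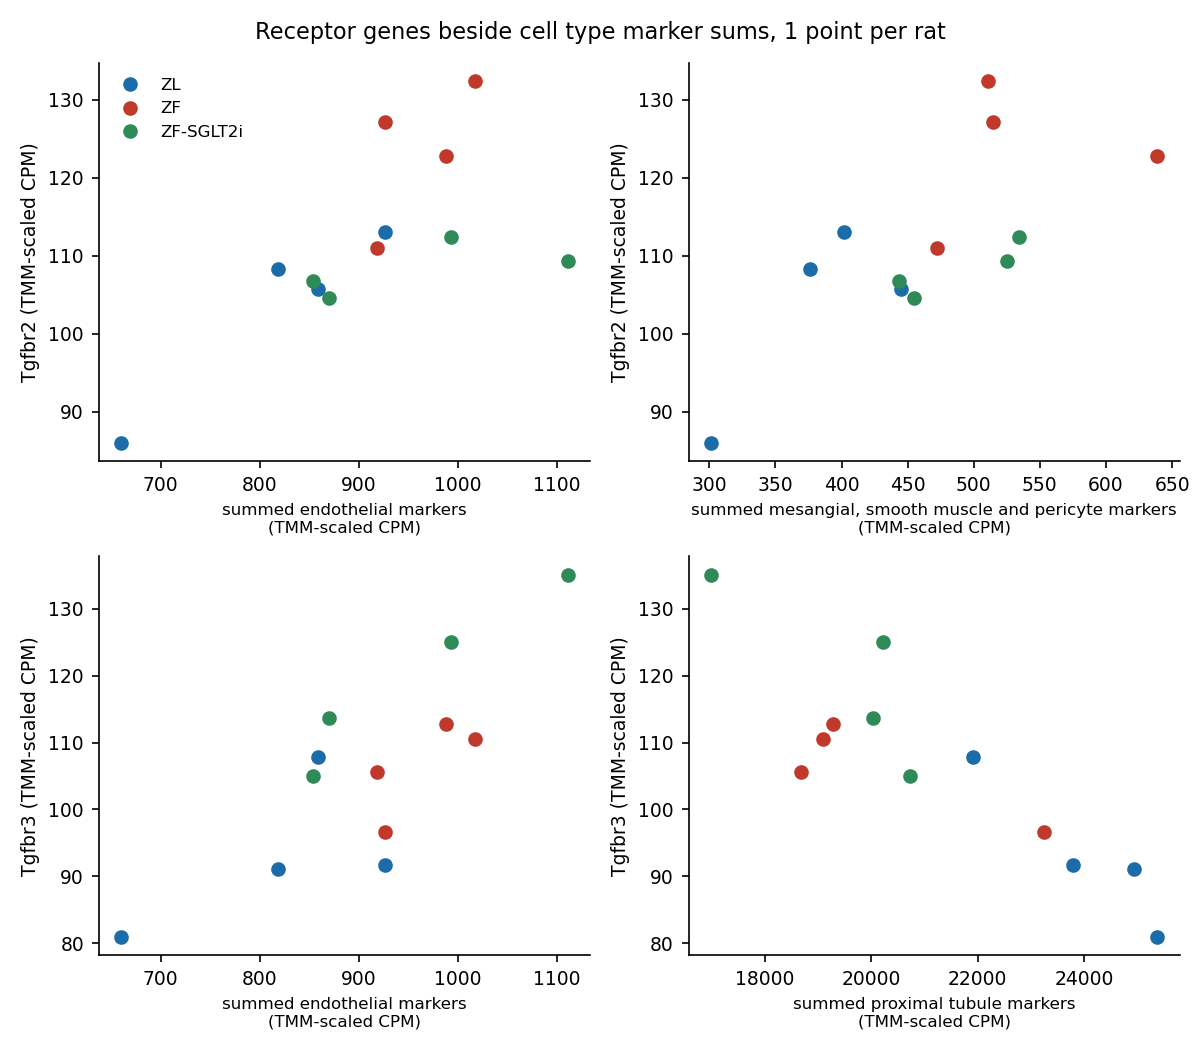
Tgfbr2 (top) and Tgfbr3 (bottom) against summed marker genes of cell types, all in TMM-scaled CPM with 1 point per rat coloured by group (axes do not start at 0). Tgfbr2 is lowest in the ZL rat with the lowest endothelial and mesangial sums (660 and 301 CPM), and Tgfbr3 is highest where the proximal tubule sum is lowest.

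Marker genes of cell types moved with several of these results. The 13 endothelial markers, with Kdr the most abundant, summed to 819, 926, 660 and 859 CPM in ZL rats, 988, 1017, 927 and 918 CPM in ZF rats and 853, 993, 870 and 1111 CPM in ZF-SGLT2i rats. The 10 mesangial, smooth muscle and pericyte markers, with Pdgfrb the most abundant, summed to 376, 402, 301 and 445 CPM in ZL rats, 639, 511, 515 and 472 CPM in ZF rats and 443.5, 534, 455 and 525 CPM in ZF-SGLT2i rats. ZL rat 3 was lowest for both sums, as it was for Tgfbr2. Over the 12 rats Tgfbr2 correlated with the endothelial sum at r = 0.76 and with the mesangial sum at 0.77, with the macrophage sum at 0.71 and with the lymphocyte sum at 0.67, and Tgfbr3 and Smad6 with the endothelial sum at 0.81 and 0.80. Without ZL rat 3 the 4 correlations of Tgfbr2 were 0.47, 0.54, 0.58 and 0.54, and those of Tgfbr3 and Smad6 with the endothelial sum were 0.70 and 0.71. The 11 macrophage markers, with Csf1r the most abundant, summed to 112.5 ± 17.8 (ZL), 146 ± 25.7 (ZF) and 123 ± 38.8 CPM (ZF-SGLT2i). All 10 of those tested had a positive log2 fold change in ZF against ZL and a negative one in ZF-SGLT2i against ZF rats. Only 1 was called in the first and none in the second, against 18.8% and 3.15% of all genes tested. Of all genes tested, 48.4% and 51.7% were positive in these comparisons, which share the ZF rats. The highest macrophage sum of the 12 rats was that of a treated animal, ZF-SGLT2i rat 2 (180.5 CPM). The 10 proximal tubule markers, with Lrp2 the most abundant, summed to 24010 ± 1551 (ZL), 20080 ± 2131 (ZF) and 19500 ± 1700 CPM (ZF-SGLT2i). In ZF against ZL rats 3 of these 10 had a positive and 7 a negative log2 fold change, so the sum does not describe each of them. The sum correlated with Tgfbr3 at −0.89 and with Smad6 at −0.82 (−0.86 and −0.76 without ZL rat 3). The 11 podocyte markers, with Podxl the most abundant, summed to 1867 ± 239, 2557 ± 242 and 2615 ± 276 CPM, and correlated with Tgfbr3 at 0.79 (0.70 without ZL rat 3). Smad2 went with the injured tubule markers (r = 0.74, and 0.69 without ZL rat 3). These markers were led by Spp1 and summed to 559 to 728 (ZL), 819 to 2225 (ZF) and 684 to 1427 CPM (ZF-SGLT2i). These correlations describe 12 libraries that share depth and group differences. The part of cell composition in the receptor, SMAD, collagen and other pathway results was not tested.

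By list, the markers were called as follows in ZF against ZL rats, where 8.19% of all genes tested were called higher and 10.6% lower. Of podocyte markers 8 of 11 rose, of mesangial markers 5 of 10, of endothelial markers 3 of 13, of injured tubule markers 7 of 10, and of fibroblast, macrophage and collecting duct markers 1 of 4, 1 of 10 and 1 of 10. Of proximal tubule markers 2 rose and 2 fell of 10, of thick limb and distal tubule markers 2 of 7 fell, 1 of 2 adipocyte markers fell, and none of 3 lymphocyte or 2 blood markers was called. In ZF-SGLT2i against ZF rats, 1 marker each fell of the mesangial, fibroblast, proximal tubule, injured tubule and thick limb lists, 1 collecting duct marker rose, and none was called of the other 6 lists, beside 3.15% of all genes tested. The mesangial gene that fell was Pdgfrb (−0.50, adjusted p = 0.0309), which had risen in ZF rats by 0.67 (adjusted p = 0.00218). The collecting duct gene that rose was Aqp2, the vasopressin-regulated water channel and the most abundant of its list (558 ± 98.8 CPM for ZF and 852 ± 77.2 for ZF-SGLT2i rats, 0.62, adjusted p = 0.0495). Of the other lists, the most abundant genes were Gsn (fibroblast), Csf1r (macrophage), Cd4 (lymphocyte), Umod (thick limb and distal tubule), Hba1 (blood) and Adipoq (adipocyte). None of these 6 was called in ZF against ZL or in ZF-SGLT2i against ZF rats. Umod averaged 2881 ± 819, 2966 ± 735 and 1856 ± 215 CPM in the ZL, ZF and ZF-SGLT2i groups, and Hba1 was at most 12.7 CPM in any rat. No marker gene of the table was listed at 0 in all 12 rats, and the podocyte and proximal tubule sums above were far from 0 in every rat, as the labelled tissue, renal cortex, requires.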

How the data were processed

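Renal cortex RNA of 4 ZL, 4 ZF and 4 ZF-SGLT2i rats was depleted of ribosomal RNA and sequenced from both ends with strand kept. The submitters' processing notes name Trimmomatic 0.38, Bowtie2, RSEM 1.3.0 and edgeR with the genome build rn6. The deposited values are a signal on the scale of CPM with TMM factors, which the authors computed from their gene-level read counts. Division by the value of 1 read gave whole reads for 100% of the values in each rat (tolerance 1e-06), and these sums are the depths given. RSEM divides reads between similar genes by estimation, so counts of close relatives are less certain.

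Groups, rat numbers and doses came from the labels and the study's methods. The 3 groups entered 1 limma 3.58.1 fit (R 4.3.3, eBayes with trend) on log2(value + 1) of 11633 genes, those reaching a value of 1 in 4 or more rats. A pseudocount of 1 understates fold changes of low genes. P-values were two-sided, adjusted by the Benjamini-Hochberg method over all genes tested, and called under 0.05. Fold changes are log2 throughout unless written as fold. Single members were also compared by an exact permutation test of 4 rats against 4 (70 assignments). The fit was also tried on simulated counts, with planted changes larger than those of the members. That trial says nothing of changes of the members' size.

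Alternatives tried were: quantile normalization, median-ratio rescaling, a replicate block, a fit of the 2 compared groups alone, array quality weights, edgeR 4.0.16 or DESeq2 1.42.0 on the recovered reads, a pseudocount of 0.1, dropping the low-value filter or raising it to a mean of 10, and omission of each of the 12 rats. Correlations without ZL rat 3 were added after the data had been seen. The members, the gene lists and the tests were chosen with earlier results of these data known. Named were the 9 members, the 3 ligands, up to 4 called genes of each pathway list per comparison by smallest adjusted p (the gene with the largest mean where none was called), the most abundant gene of each marker list, and the 3 genes nearest to each called member. Pdgfrb is named under this rule. A gene that the rule would name is not reported here. The table is in another build than the RefSeq promoter windows (GRCr8), so the coordinates of the printed windows, in GRCr8, are the only ones given. Protein sequences were not analysed here.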

Additional observations from a re-analysis of the deposited data

Results flagged for a closer look

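Among the 43 genes checked, each in 3 groups of 4 rats, 6 of the 129 groups held a rat that stood far from the other 3 by Dixon's test. Chance alone would give about 6.45 such groups. Smad6 measured 9.19 CPM in ZL rat 3 against 11.5 to 11.9 in the other ZL rats, and 10.1 CPM in ZF rat 4 against 14.6 to 15.4 in the other ZF rats. In ZL rat 3, Tgfb1 (12.7 against 17.1 to 17.6 CPM) and Ltbp2 (6.92 against 10.1 to 10.4 CPM) were also low. Vim measured 184 CPM in ZF rat 2 against 111 to 120 in the other ZF rats. Treated rats 3, 4 and 6 had Fbn1 between 36.4 and 37.4 CPM, and ZF-SGLT2i rat 2 had 45.3.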

How the results depend on the processing

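Of 594 values of the 9 genes under the alternatives, 562 kept their direction and side of the threshold, 13 lost a call, 4 gained one and 15 changed sign. None of the sign changes was in a called difference. Of 895 values of the named pathway genes, 815 kept both, 73 lost a call, 7 gained one and 0 changed sign. The rat numbers do not pair the rats, since equal numbers mark different animals and their deviations correlated at −0.38 to 0.25. With the replicate block, 807, 223 and 1502 of all genes were called in the 3 comparisons (ZF to ZL, ZF-SGLT2i to ZF and ZF-SGLT2i to ZL), where 2185, 366 and 3184 had been. Of the 9 genes it called 0, 0 and 1 (Smad2), with Tgfbr2 in ZF at 0.33 (adjusted p = 0.0835) and Tgfbr3 in ZF-SGLT2i against ZL at 0.30 (adjusted p = 0.147), and 19 pathway genes in ZF against ZL. Among the named pathway genes it ended the calls in ZF against ZL on Tgfb1 (0.58, adjusted p = 0.0652), Sostdc1, Tgif2, Acvrl1, Eng, Pmepa1, Wwp1, Fstl1, Id1, Id2, Id3, Atoh8 and Tgfbi (adjusted p 0.0743 to 0.18). Under it Smad4 in ZF against ZL was −0.052 and Tgfbr1 in ZF-SGLT2i against ZL −0.0049. In ZF against ZL, quantile normalization called 2 of the 9 (Tgfbr2 and Smad2), the fit of only the 2 groups called 0, and quantile normalization turned 953 higher and 1232 lower calls (43.6% higher) into 1103 and 942 (53.9%). In ZF-SGLT2i against ZF, array quality weights called 689 genes in all and 22 of the pathway, DESeq2 641 and 26, and the fit of only the 2 groups 16 of the pathway, against 366 and 10. Leaving out 1 rat gave 1389 to 2453, 176 to 570 and 2241 to 3302 calls in all, 0 to 1, 0 and 1 to 2 among the 9 genes, and 19 to 39 and 5 to 17 in the pathway lists of the first 2 comparisons. Leave-one-out ranges that crossed 0 were those of Ltbp1 (−0.084 to 0.14), Smad3 (−0.0076 to 0.057) and Smad4 (−0.028 to 0.055) in ZF against ZL, of Smad6 (−0.068 to 0.16), Smad7 (−0.040 to 0.088) and Tgfbr1 (−0.056 to 0.010) in ZF-SGLT2i against ZF, and of Tgfbr1 (−0.0027 to 0.045) and Tgfbr2 (−0.0097 to 0.12) in ZF-SGLT2i against ZL. The causes of these changes were not tested. With 4 rats per group the exact test cannot go below 0.0286. Smad6 had the fewest reads of the 9 genes, 81 in its lowest library.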

Other observations

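Smad6 was not called in any comparison, but its values were close to those of 3 other genes, which were looked up after its values had been seen. Over the 12 rats it correlated with Dysf at r = 0.96, with the type II BMP receptor gene Bmpr2 at 0.94 and with Map2k7 at 0.94, and with group means removed at 0.98, 0.95 and 0.95. Without ZL rat 3 these correlations were 0.95, 0.92 and 0.91. Bmpr2 measured 156, 163, 139 and 159 CPM in ZL rats. It measured 186, 181, 154 and 181 CPM in ZF rats, and 175, 195, 177 and 194 CPM in ZF-SGLT2i rats. ZL rat 3 and ZF rat 4, the low rats of their groups for Smad6, were also the lowest of their groups for Bmpr2, whereas ZF-SGLT2i rat 4, the lowest treated rat for Smad6, was not (177 CPM, against 175 in ZF-SGLT2i rat 2). Bmpr2 was 0.26 higher in ZF-SGLT2i than in ZL rats (SE 0.07, adjusted p = 0.0156 by limma), and ZF and ZL rats differed by 0.18 (adjusted p = 0.0924). The correlations were the highest of 11633 and share libraries, so they carry no test.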
